A study of Rattus norvegicus with 8 samples.

Results

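The 8 genes described here, Foxl2, Nr5a1, Nr5a2, Nr0b1, Gata4, Gata6, Wt1 and Nrip1, encode nuclear proteins that set and keep the identity of ovarian granulosa cells or adjust the output of the factors that do. They were taken as every probe set whose platform annotation names exactly 1 of them, which gave 14 of the 31099 probe sets of the array, with 1 to 3 per gene. The rule uses gene names and no measured value, but the genes were picked with earlier results of these data known. RNA of rat granulosa cells isolated from ovarian follicles was hybridised to 8 one-colour Affymetrix arrays, 1 per sample. In the study's design, immature rats were given eCG, a gonadotropin that makes follicles grow, and after 24 h received either an anti-eCG antibody, which sends the follicles into atresia, or pre-immune serum, under which they go on developing. Oocytes of the antibody animals gave 0% development to term, against 30 to 50% with serum. All animals had therefore been primed with eCG. The labels tie no array to either treatment, so no comparison between the treatments was made, and nothing says whether the 8 samples came from separate animals or from pools. Arrays are called by their label number and values run from 2074, 2076 and 2194 up to 2199.

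Granulosa cells descend from the supporting lineage of the embryonic gonad. FOXL2 holds them in the female fate and restrains the Sertoli programme of the testis, while NR5A1 (SF-1) and NR5A2 (LRH-1) are orphan nuclear receptors that bind the same short DNA motif as monomers and switch on genes of steroid synthesis. GATA4 and GATA6 are zinc finger factors that work beside them on many of the same promoters, WT1 is a zinc finger factor of the early gonad and of small follicles, and NR0B1 (DAX-1) and NRIP1 (RIP140) mainly repress the nuclear receptors that they bind.

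A value below is the deposited signal after scaling of the arrays to a common level. The floor is the 40th percentile of an array, under which signals are not read, and it lay between 273 and 471 (highest on array 2195). A probe set counted as measured when it was above its array's median on at least 2 arrays, which 12 of the 14 were, covering all 8 genes. The spread of a gene is its inner range, the second highest array over the second lowest, so that no single array can set it. It is taken after raising low values to the floor and is written "at least" where a raised value entered it. Levels of different probe sets are not comparable, and only their course over arrays is compared. Fewer granulosa cells in a sample and less of a transcript per cell cannot be told apart in such bulk RNA.

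Arrays 2074 and 2076 stood apart from the other 6. The median absolute log2 difference over measured genes was 0.28 between these 2 arrays, 0.30 to 0.48 between pairs among arrays 2194 to 2199, and 0.44 to 0.59 between a member of the pair and one of the 6. The labels do not say what sets them apart. Among the 6, array 2195 was the farthest from the rest. It differed from them by 0.441 to 0.479, against 0.305 to 0.438 in pairs without it. Its deposited median was also the highest of the 8 arrays (648, against 396 to 525). Of the 9 granulosa markers listed, 8 had a probe set with a single gene name and all 8 were measured, Fshr being without one, and their summed signal lay between 336104 and 480076. Markers of other cell types were partly read and partly not. Lyz2 (1498 to 5460.1) and Cd14 of leukocytes and Acta2 of smooth muscle (782 to 3072) were above the floor on all 8 arrays, and Gdf9 of the oocyte on 7. Cdh1, Vwf, Itgam, Zp3 and Hhip were at the floor on 7 of 8 arrays, and Ptprc, Des and Zp1 on all 8. Summed signals of the measured markers on arrays 2074 and 2076 overlapped those of the other 6 for theca (2 of 5 measured, 1037 and 544 against 165 to 1717), for stroma and smooth muscle (4 of 5, 3348 and 3171 against 2306 to 4694) and for endothelium (2 of 5, 731 and 638 against 273 to 1964). They also overlapped for leukocytes (4 of 6, 8340.1 and 5045 against 4046 to 6464), surface epithelium (1 of 4, 374 and 399.8 against 31.4 to 1423) and oocyte (2 of 6, 859 and 1372 against 259 to 1878). These sums hold values under the floor. Cyp17a1 of theca was at the floor on 5 arrays, Pecam1 of endothelium on 4, Zp2 of oocyte on 3 and Msln of surface epithelium on 2. For these 4 cell types the overlap therefore cannot show whether their share differed on the pair. In stroma and smooth muscle, Dcn was at the floor on 4 arrays and Myh11 on 2, and in leukocytes C1qa on 5. The overlap of stroma and of leukocytes therefore does not show an equal share on the pair. Of the 2 measured erythroid markers, Hbb was higher on the pair and Alas2 was not. Hbb, a globin chain, gave 45704 and 12573 on the pair and at most 9666 elsewhere (lowest 3709). Alas2, the first enzyme of haem synthesis in red cells, gave 3193 and 645 on the pair against 88.3 to 669 elsewhere. The sum of both (2 of 3 listed), mostly Hbb, gave 48897 and 13218 against 3797 to 10335. The part of erythroid RNA in what follows was not tested.

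Foxl2 was well above background on every array, over 87.1% to 96.0% of probe sets. Its single probe set (1382757_at) gave 10432 on array 2074, 8098 on 2076, 5315 on 2194, 6927 on 2195, 4376 on 2196, 6548 on 2197, 3572 on 2198 and 6494 on 2199. Both arrays of the pair 2074 and 2076 lay above all of the other 6, which fell into an upper set of 2195, 2197 and 2199 close to one another and a lower set of 2194, 2196 and 2198. The inner range was 1.85-fold, larger than in 60.5% of the 10513 measured genes, and the full range was 2.92-fold, or 1.94-fold over the 6 arrays alone. The array thus showed the transcript of this granulosa identity factor at a clear level in each sample, with a spread near that of a typical gene. Of the Sertoli genes that FOXL2 is known to restrain in mouse granulosa cells, Sox9 and Sox8 had no probe set named for that gene alone. Dmrt1, a factor of male fate and the third of the list, was at the floor on 3 arrays and ran from 199 to 1336 around a median of 447.

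**Figure D1:**
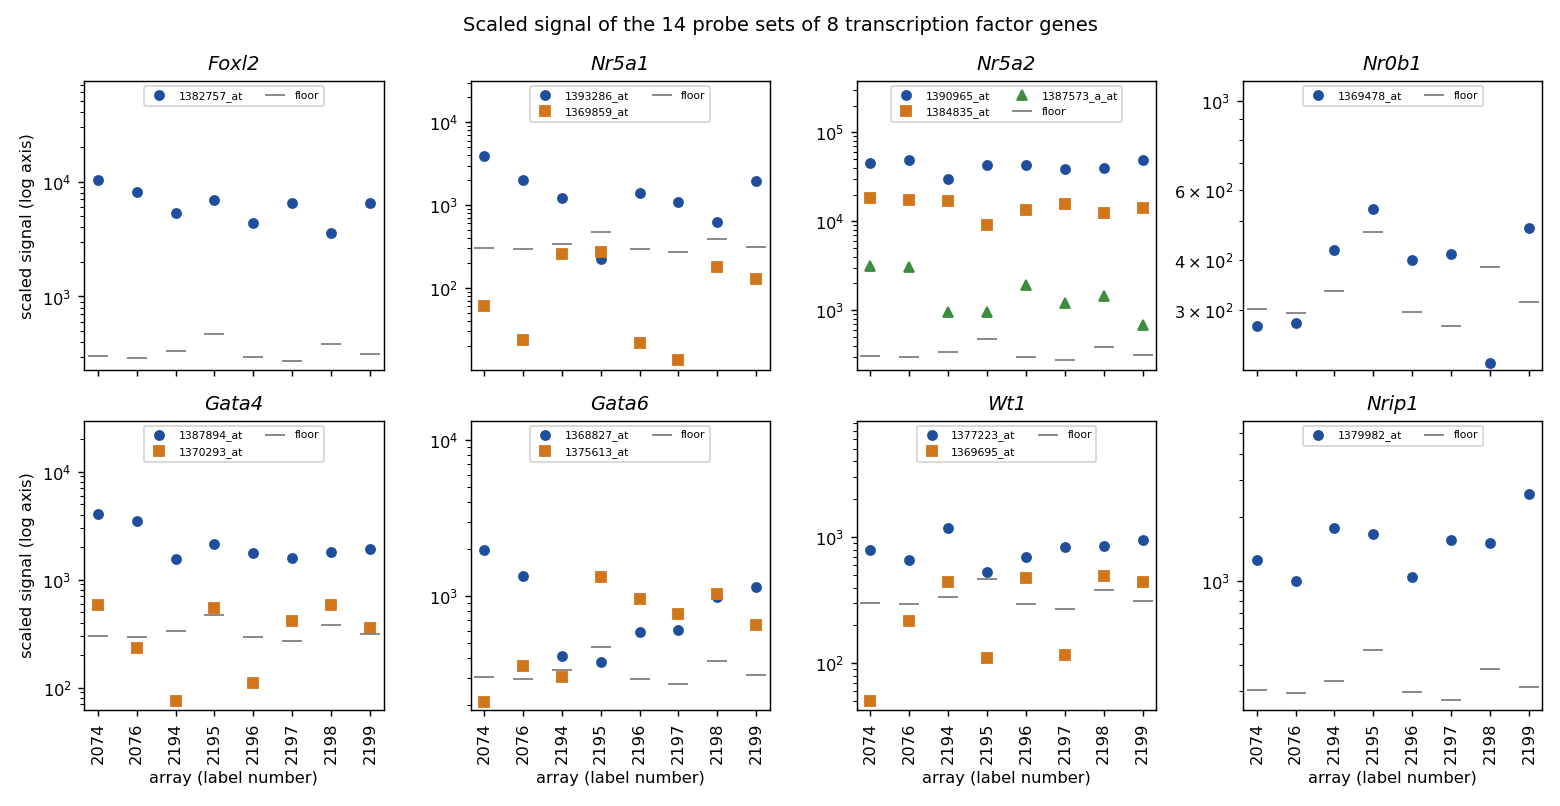
Scaled signal (vertical, log axis) of all 14 probe sets in 8 panels, 1 per gene, over the 8 arrays by label number; markers of a different colour are different probe sets and grey dashes mark the floor of each array. Foxl2, the upper Gata4 probe set and 1368827_at of Gata6 are highest on arrays 2074 and 2076, and the lower Nr5a1 probe set stays under the floor on all 8 arrays.

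By their brightest probe sets, the NR5A pair differed in how steady their signals were. Another Nr5a2 probe set, described below, varied as widely as Nr5a1, with 3.26-fold. Nr5a1, the steroidogenic factor shared by adrenal and gonads, gave 3942 on array 2074, 1985 on 2076, 1222 on 2194, 223 on 2195, 1403 on 2196, 1088 on 2197, 632 on 2198 and 1937 on 2199 (probe set 1393286_at). Arrays 2074 and 2076 lay above the other 6, though 2076 only by a little over 2199, and array 2195 was the single one under the floor. The inner range was 3.14-fold, larger than in 95.8% of measured genes, and the full range was at least 8.37-fold. Without array 2195 the inner range was 1.80-fold and without array 2198 it was 1.81-fold, so its width rested on these 2 low arrays. The other Nr5a1 probe set (1369859_at) was under the floor on all 8 arrays, between 13.4 and 269, and gave no check of this course.

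By its brightest probe set Nr5a2, a receptor that mouse granulosa cells need for ovulation, had the narrowest inner range of the 8 genes. It lay above at least 98.8% of probe sets on every array. Probe set 1390965_at gave 44948 on array 2074, 48386 on 2076, 29562 on 2194, 43077 on 2195, 42953 on 2196, 39019 on 2197, 39244 on 2198 and 48582 on 2199. Array 2194 alone was low, and the other 7 lay within a narrow band in which the pair did not stand apart from 2199 and 2195. The inner range of 1.24-fold was wider than in only 4.89% of measured genes. The second probe set, 1384835_at, ran from 8977 on array 2195 to 18352 on array 2074, with an inner range of 1.41-fold and the pair above the other 6 arrays, though only just (17560 on array 2076 and 16758 on array 2194).

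The third Nr5a2 probe set took another course. Probe set 1387573_a_at, whose suffix marks probes shared by transcripts of 1 gene, gave 3154 on array 2074, 3079 on 2076, 945 on 2194, 965 on 2195, 1944 on 2196, 1208 on 2197, 1453 on 2198 and 679 on 2199. Here the pair lay well above the other 6, and array 2199, the highest of all in 1390965_at, was the lowest. The inner range was 3.26-fold, larger than in 96.4% of measured genes, and 1.53-fold over arrays 2194 to 2199 alone. Of the 28 pairs that 8 arrays form, 1390965_at and 1387573_a_at ordered 17 alike, 1390965_at and 1384835_at 14, and 1384835_at and 1387573_a_at 19. These counts were not low for the platform, since among 2664 genes with at least 2 measured probe sets the brightest 2 ordered a median of 54.5% of array pairs alike. Which ends of the Nr5a2 transcripts the probe sets match was not analysed here, and a level of Nr5a2 RNA over arrays therefore depends on the probe set read.

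**Figure D2:**
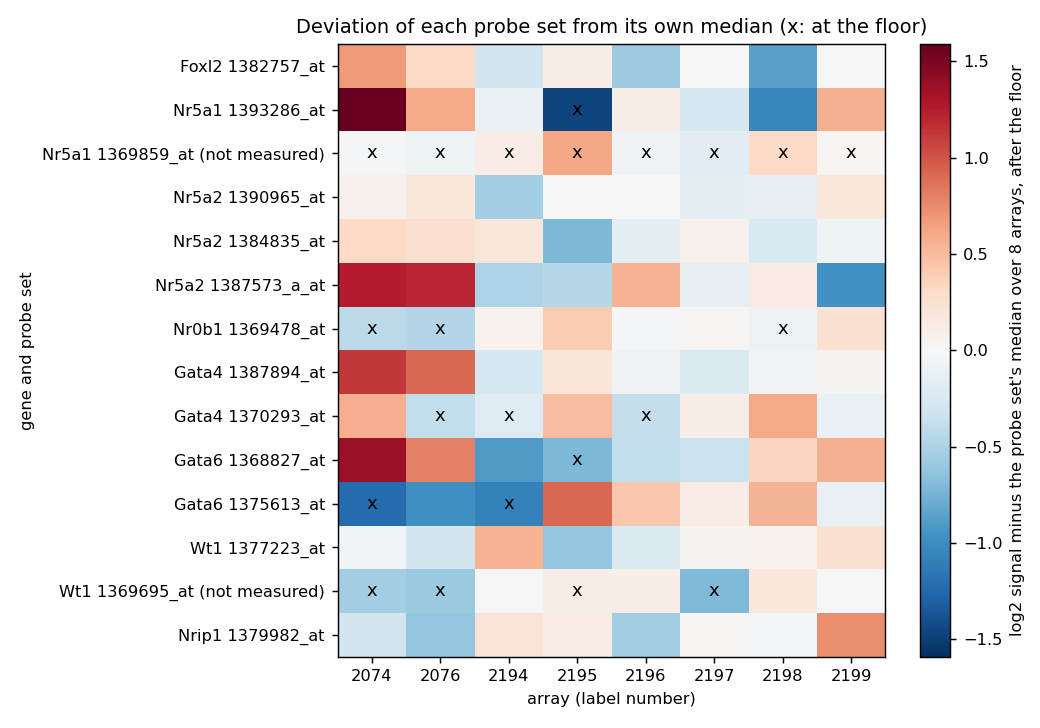
Log2 signal of each of the 14 probe sets (rows, by gene) on each array (columns) minus that probe set's median over the 8 arrays, after the floor; red is above and blue below the median, and x marks a value at the floor, whose colour then shows only the floor of that array. The pair 2074 and 2076 is red in Foxl2, in 1393286_at of Nr5a1, in 1387573_a_at of Nr5a2 and in the upper Gata4 and Gata6 rows, and blue in 1375613_at of Gata6.

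Gata4 and Gata6 both had their highest brightest-probe-set signals on arrays 2074 and 2076. Gata4, a GATA factor that mouse granulosa cells need for follicle growth, gave 4038 on array 2074, 3489 on 2076, 1541 on 2194, 2115 on 2195, 1778 on 2196, 1574 on 2197, 1797 on 2198 and 1905 on 2199 (probe set 1387894_at). The pair stood clear of the other 6 arrays, which themselves spanned just 1.37-fold. The inner range of 2.22-fold, larger than in 80.1% of measured genes, rested on the pair, being 1.33-fold without array 2074 and 1.34-fold without array 2076. Its second probe set (1370293_at) was weak, at the floor on 3 arrays and between 75.5 and 587, and its inner range of at least 1.94-fold became 5.24-fold with no floor. Of the 25 array pairs with a known order in both Gata4 probe sets, 16 were ordered alike.

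Gata6, its close relative in the same cells, had 2 probe sets that ran against each other. Probe set 1368827_at gave 1984 on array 2074, 1353 on 2076, 416 on 2194, 380.5 on 2195, 590.2 on 2196, 609.9 on 2197, 984 on 2198 and 1145 on 2199. Probe set 1375613_at gave 209 on array 2074, 358 on 2076, 304 on 2194, 1328 on 2195, 953 on 2196, 767 on 2197, 1029.7 on 2198 and 651 on 2199. Array 2195 in the first, and arrays 2074 and 2194 in the second, were under the floor, so their order among low arrays is unknown. The first was highest on array 2074, where the second was under the floor, and the second was highest on array 2195, where the first was under it. Only 7 of 26 array pairs were ordered alike, and just 6.19% of the 2664 genes with several measured probe sets had a lower share. Both varied widely, with inner ranges of at least 2.87-fold and at least 3.07-fold, larger than in 93.7% and 95.4% of measured genes. No direction over arrays can be given for Gata6 RNA as a whole.

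Wt1, which in rodent ovaries marks granulosa cells of small follicles, was weak but measured. Probe set 1377223_at gave 789 on array 2074, 666 on 2076, 1196 on 2194, 531 on 2195, 701 on 2196, 840.2 on 2197, 849 on 2198 and 960.2 on 2199. Array 2194 was highest and array 2195 lowest, and the pair lay inside the range of the other 6. The inner range was 1.44-fold, wider than in 22.0% of measured genes. A second probe set (1369695_at) was at the floor on 4 arrays and did not count as measured. It ran from 50.01 to 496, and 14 of 20 array pairs with a known order were ordered as in the first.

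In the corepressors Nr0b1 and Nrip1, arrays 2074 and 2076 did not lie above the rest. Nr0b1, which in adrenal and gonad represses NR5A1, gave 273 on array 2074, 277 on 2076, 424 on 2194, 537 on 2195, 399.6 on 2196, 413 on 2197, 221 on 2198 and 480.02 on 2199 (probe set 1369478_at). These values sit at the edge of what the array reads: 2074, 2076 and 2198 were under the floor, the probe set was above the array median on just 2 arrays, and the inner range was at least 1.59-fold. Without array 2074 or 2076 it was at least 1.26-fold, and without 2197 or 2199 the gene no longer counted as measured. Nrip1, a corepressor needed for ovulation in mice, was read on every array, with 1253 on array 2074, 998 on 2076, 1783 on 2194, 1658 on 2195, 1043 on 2196, 1557 on 2197, 1509.7 on 2198 and 2567 on 2199 (probe set 1379982_at). Array 2199 was highest, 2076 and 2196 were lowest, and the inner range of 1.71-fold was larger than in 49.7% of measured genes.

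Of the 8 genes, 3 reached a 2-fold inner range by their brightest probe set (Nr5a1, Gata4 and Gata6), against 29.8% of all measured genes. This share of 37.5% is near that background. The median inner range of the 8 was 1.78-fold and that of all measured genes 1.71-fold, so as a set these factors were about as variable over the 8 samples as other genes. By brightest probe sets their individual places ran from nearly the steadiest (Nr5a2, 1.24-fold, where the 5th percentile of measured genes was 1.24-fold) to nearly the most variable (Nr5a1, where the 95th percentile was 3.02-fold). The place of Nr5a2 depends on the probe set, since 1387573_a_at had 3.26-fold, larger than in 96.4% of measured genes. Over arrays 2194 to 2199 alone, 1 of the 8 had at least 2-fold, Nr5a1 with 2.22-fold, a share of 12.5% against 12% of all genes measured on those arrays, and the median inner range was 1.29-fold against 1.40-fold. Gata6 was then represented by 1375613_at, which had become the brighter one, with 1.58-fold, while 1368827_at had 2.11-fold. With the mean of a gene's measured probe sets over all 8 arrays the count was also 1 (26% of all genes), and under a stricter filter, above the median on each of the 8 arrays, it was 1 of 4 (19.3% of all genes). The count stayed at 3 of 8 with unscaled values, against 29.3% of all genes, and with a lower floor or none, against 39.6%, and by the full range it was 6 of 8, against 71.4%.

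**Figure D3:**
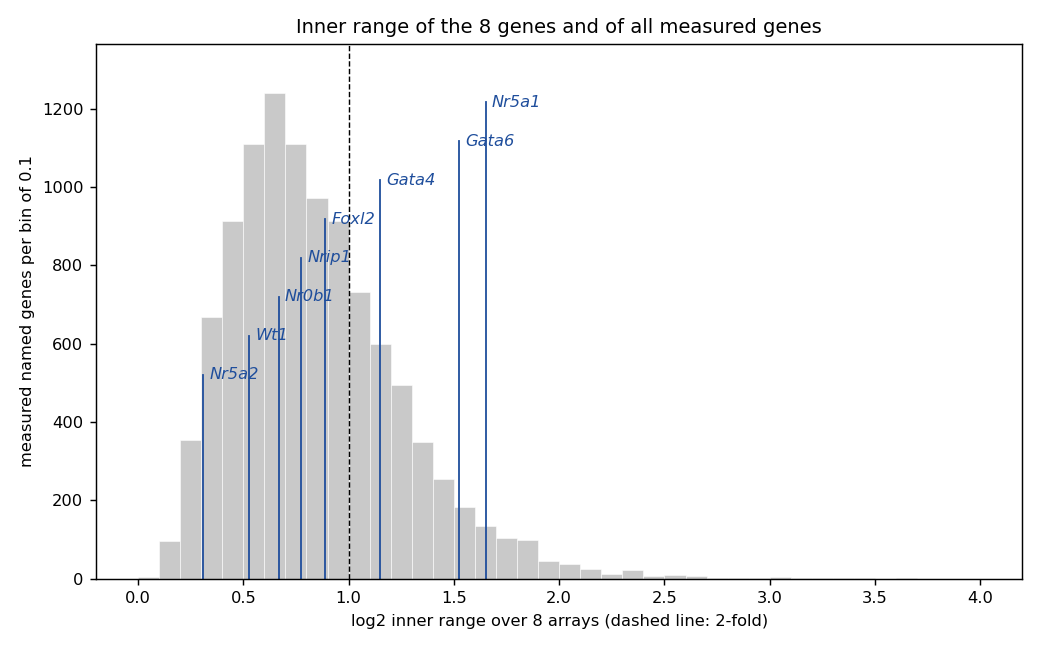
Number of measured genes (vertical) by log2 inner range over the 8 arrays in bins of 0.1 (horizontal); blue lines mark the 8 genes, at heights chosen for legibility, and the dashed line marks 2-fold. By their brightest probe sets, Gata4, Gata6 and Nr5a1 lie right of the line, and Nr5a2 lies at the lower edge of the distribution.

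In 4 of the 8 genes, Foxl2, Nr5a1, Gata4 and Gata6, the brightest probe set was higher on both arrays of the pair 2074 and 2076 than on each of the other 6, and in 0 was it lower on both. Among all measured genes, 13.8% were above on both and 13.6% were below on both. This count is a description, since the pair carries no treatment label, and erythroid signal was also higher on it in Hbb. For Gata6 it follows from the choice of probe set: 1368827_at was the brighter over 8 arrays (median 797 against 709) but the dimmer over arrays 2194 to 2199 (600.03 against 859.9), so the arrays where it is high also chose it. By its other probe set the count is 3 of 8, and without Gata6 3 of 7. For Gata4 it holds for 1 of 2 probe sets. In Nr5a2 it held for 2 of the 3 probe sets, though not for the brightest.

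The 8 genes ordered the arrays in 2 ways. Among the 10 gene pairs within Foxl2, Nr5a1, Nr5a2, Gata4 and Gata6, 64.3% to 82.1% of array pairs with a known order were ordered alike. Gata4 and Nr5a2, the latter by 1390965_at, ordered 23 of 28 array pairs alike. By these probe sets 1.6% of measured genes were at least as alike to Nr5a2 and 4.16% to Gata4. In the least alike pair, Nr5a1 and Nr5a2 with 64.3%, 21.8% of measured genes were at least as alike to Nr5a1 and 19.9% to Nr5a2. A share at that end is therefore common among measured genes. The other Nr5a2 probe sets, which took other courses, do not enter these shares. Gata6 belongs here only by 1368827_at, which ordered 22 of 27 array pairs as Gata4 did and 22 of 27 as Nr5a1 did. By 1375613_at the counts were 13 of 27 and 4 of 27, and 14 of 24 with Nr0b1. The 3 gene pairs within Nr0b1, Wt1 and Nrip1 reached 56% to 84%, led by the 2 corepressors, which ordered 21 of 25 array pairs alike. Of measured genes, 5.58% were at least as alike to Nr0b1 and 1.91% to Nrip1. Nr0b1 was under the floor on arrays 2074, 2076 and 2198, so part of its order is only these arrays against the rest. Between the 2 sets of genes the 15 gene pairs lay lower, from 20.8% in Nr0b1 with Gata6 by 1368827_at (5 of 24) to 52% in Nr0b1 with Foxl2 (13 of 25). The sets were drawn after these values were seen and have no test.

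Without arrays 2074 and 2076 this division was lost. Over arrays 2194 to 2199 the shares ran from 35.7% to 86.7% within the first set, from 46.7% to 80% within the second and from 33.3% to 86.7% between them. Gata4 and Nr5a2, the latter by 1390965_at, still ordered 13 of 15 array pairs alike, and Nr0b1 and Nrip1 12 of 15. The likeness of Gata4 and Nr5a2 depends on the probe set. Over the same 6 arrays, Nr5a2 by 1384835_at was highest on 2194 (16758) and lowest on 2195 (8977). Gata4 by 1387894_at was lowest on 2194 (1541) and highest on 2195 (2115). Foxl2 and Nr0b1, which differed over all 8 arrays, also ordered 13 of 15 array pairs alike over arrays 2194 to 2199. Nr5a1 and Nr0b1, the activator and its known repressor, ordered 8 of 25 array pairs alike over all arrays and 8 of 15 over the 6.

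**Figure D4:**
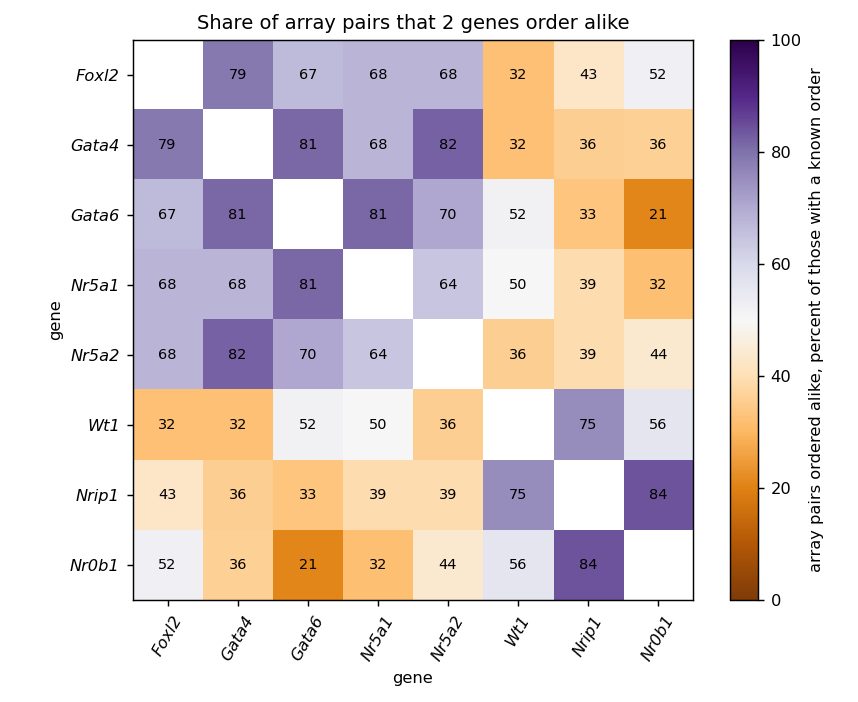
Percentage of array pairs that 2 genes order alike, out of those with a known order in both, for the brightest probe sets of the 8 genes (rows and columns, Gata6 by 1368827_at, whose other probe set differs); purple is above and orange below 50%. The block from Foxl2 to Nr5a2 and the block from Wt1 to Nr0b1 are purple, with 64% to 82% and 56% to 84%, and the cells between them reach at most 52%.

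For each gene, the measured genes whose course over the 8 arrays was nearest were found by the root mean square difference of median-centred log2 values. The nearest to Foxl2 were Mvp (0.16) and Optn (0.17), each of which ordered 27 of 28 array pairs as Foxl2 did, where a typical gene was 0.64 away. Nr5a1 had few near neighbours, with Nrbp2 at 0.23 and Gda at 0.38 against a typical 1.04. Nearest to Nr5a2 were Aprt and Gpkow (0.10 and 0.11), to Gata4 Il6r and Klc2 (0.084 and 0.11), to Gata6 Slc27a1 and Mettl7a (0.20 and 0.27), to Wt1 Cr1l and Pnp (0.15 and 0.16), to Nrip1 Pink1 and Rdh16 (0.12 and 0.15), and to Nr0b1 Rbm12b and G3bp1 (0.083 and 0.10). None of the 8 was among the nearest of another. With 8 arrays and 10513 genes some close matches can arise by chance, though not for every gene. Within 0.2 of Nr5a2 lay 101 genes and of Nr0b1 200, but of Nr5a1 and of Gata6 0. The small values of Nr0b1 rest in part on arrays at the floor.

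Genes of partner proteins mostly had narrow ranges over all 8 arrays. Of 17 listed cofactors, 13 were measured, and 1 reached a 2-fold inner range, a share of 7.69% against 29.8% of all measured genes. The list's median was 1.43-fold. Hdac3, a histone deacetylase of corepressor complexes, had at least 3.83-fold, from 237 on array 2195 to 2173 on array 2076, with both arrays of the pair above the other 6, while Ctnnb1, beta-catenin, was below on both. Without array 2195 or 2199 the count was 0 (21.8% and 23.9% of all genes), and without 2076 or 2196 it was 2 (18.7% and 25.1%). Over arrays 2194 to 2199 it was 2 of 13, a share of 15.4% against 12%, so the low share of the list was not seen there. Nr0b2 (SHP), a relative of Nr0b1 that also represses NR5A receptors, had 1.76-fold around a weak median of 483, and Cited2, a partner of WT1 in the early gonad of mice, had 1.69-fold from 10718 to 23633. The corepressor Ctbp1, which binds NRIP1, had the narrowest inner range, 1.16-fold, which leaves out its low value on array 2199, and its full range of 1.65-fold was wider than the 1.32-fold of Ncor1. Zfpm1, Ncoa2 and Ppargc1a were listed but not measured. Zfpm2 (FOG2), the main GATA4 cofactor of the gonad, was measured at a median of 509.

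Over all 8 arrays, many genes that these factors are known to drive had wide ranges. Of 17 listed targets 16 were measured, and 9 reached a 2-fold inner range, a share of 56.2% against 29.8%, with a list median of 2.18-fold. Cyp19a1, the aromatase, had 4.20-fold, Lhcgr, the LH receptor, 3.67-fold and Inhba, the activin beta A subunit, 2.72-fold. Cyp11a1, the first enzyme of steroid synthesis, had the narrowest with 1.24-fold. Cyp19a1 was lowest on array 2076 (987), where Nr5a1, Gata4 and Foxl2 were each second highest by their brightest probe sets. It was highest on array 2198 (20564), where Foxl2 was lowest, Nr5a1 was second lowest and Gata4 (1797) was in mid-range. Other probe sets ran otherwise. The weak Gata4 probe set 1370293_at was at the floor on 2076 and highest on 2198 (587). Gata6 gave 1353 on 2076 and 984 on 2198 by 1368827_at, and 358 and 1029.7 by 1375613_at. A link between these levels was not tested. The targets in which both arrays of the pair lay above the other 6 were 4 of 16, Scarb1, Inha, Prlr and Por, against 13.8% of all measured genes, and 1, Fdx1, lay below, against 13.6%. Without array 2076 the count of targets with at least 2-fold was 5 of 16 (18.7% of all genes). Over arrays 2194 to 2199 it was 2 of 16, a share of 12.5% against 12%, so the wide ranges of the list were not seen there.

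Other transcription factors of the ovary were listed beside them. Of 20, 12 were measured and 3 reached a 2-fold inner range, a share of 25% against 29.8% (list median 0.58 on the log2 scale). Foxo1, a forkhead factor held out of the nucleus by survival signals, had 4.33-fold, and the pair lay above the other 6 (12314 and 6311 against 1387 to 4019.9). Nr4a1, an orphan receptor induced by LH, had 2.31-fold and Cebpb, a mediator of ovulation in mice, 2.12-fold, with the pair above in Cebpb (14358 and 25439 against 4860.1 to 10715) and also in Sp1. Sox4 had the narrowest, 1.23-fold. Without array 2076 the count was 1 (18.7% of all genes). Esr2, the oestrogen receptor that is typical of granulosa cells, was at the floor on all 8 arrays, as were Esr1 and Emx2, so its probe sets gave no reading here.

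**Figure D5:**
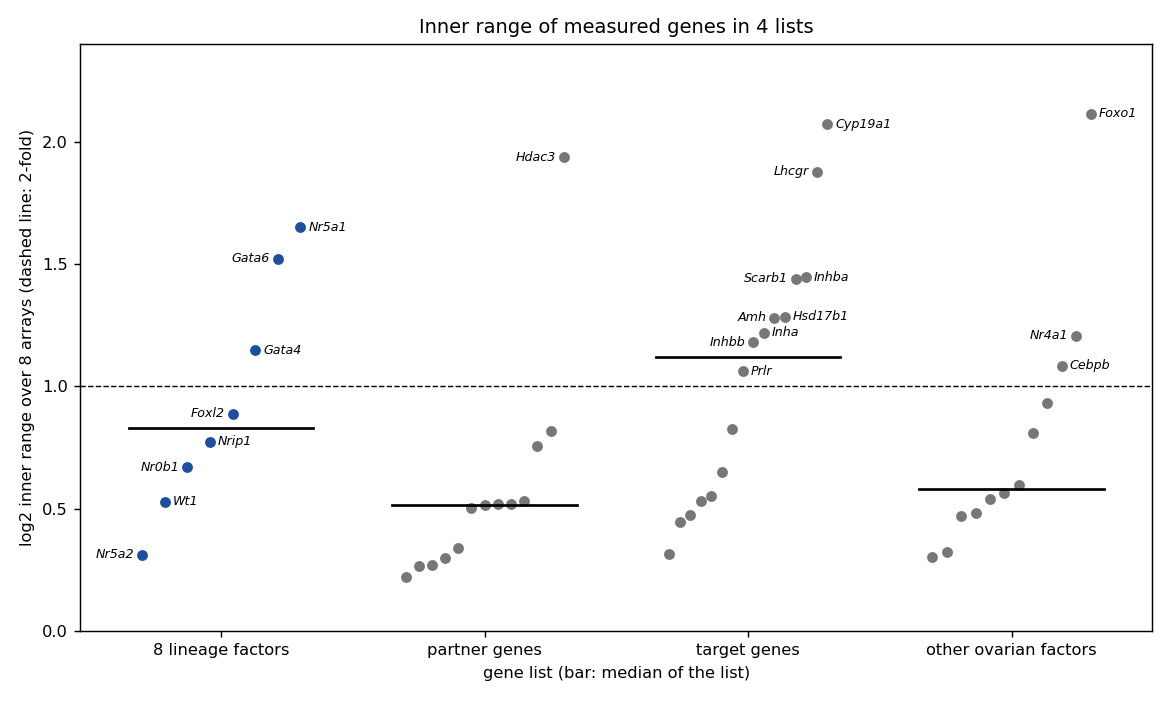
Log2 inner range over the 8 arrays (vertical) of each measured gene in 4 lists, with bars at the list medians and a dashed line at 2-fold; genes at or above the line, and all 8 lineage factors, are named. The partner genes lie lowest apart from Hdac3, and 9 of 16 target genes lie above the line, led by Cyp19a1.

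Promoter windows of 250 bases before to 50 bases after the gene start were matched by symbol in a RefSeq table of the GRCr8 assembly for 6 of the 8 genes, Nr5a1, Nr5a2, Nr0b1, Gata6, Wt1 and Nrip1. They were searched on both strands for 4 short motifs. The NR5A motif is AAGGTCA, to which the monomeric receptors bind. The GATA motif is AGATAA. The forkhead motif is TAAACA. The WT1 motif is GTGGGAG. The WT1 and GATA letters can share bases, since the first ends as the second begins. In this order, the letters stand in 4.61%, 11.6%, 13.7% and 8.87% of the 33469 windows of the table. The forkhead letters were found in 1 of the 6, Gata6, and the other 3 motifs in 0. An E-box, CACGTG, added after the windows had been seen because it is the textbook element of the Nr5a1 promoter, stood in Nr5a1 and Wt1 and in 6.42% of all windows. Stretches with 30 bases on each side of the match, or up to the window's end, are shown 5′ to 3′ on the gene's strand to let the element be seen in its context, with the matched letters in capitals. They are Nr5a1 (chr3:42896117-42896182, minus strand), Wt1 (chr3:112021822-112021887, plus strand) and Gata6 (chr18:2460899-2460958, plus strand, the motif read on the opposite strand).
Nr5a1: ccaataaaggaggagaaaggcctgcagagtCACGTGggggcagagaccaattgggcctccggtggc
Wt1: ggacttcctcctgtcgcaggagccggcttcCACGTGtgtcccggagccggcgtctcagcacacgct
Gata6: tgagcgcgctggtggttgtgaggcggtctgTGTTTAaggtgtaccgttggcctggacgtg

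Among the targets, 12 of 17 windows were matched. The NR5A letters stood in 1, Amh, the GATA letters in 1, Inha, and the WT1 letters in 2, Amh and Inha. The forkhead letters stood in 2, Hsd3b1 and Inhba, and the E-box in 1, Fshr. Amh and Inha, both on the granulosa marker list, were the only matched targets with NR5A, GATA or WT1 letters. Their stretches are shown: Amh (chr7:9559915-9560025, minus strand, the WT1 letters on the opposite strand) and Inha (chr9:84442929-84442999, plus strand, where the WT1 and GATA letters overlap).
Amh: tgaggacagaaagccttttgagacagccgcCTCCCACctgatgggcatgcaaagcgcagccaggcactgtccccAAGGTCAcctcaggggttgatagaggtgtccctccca
Inha: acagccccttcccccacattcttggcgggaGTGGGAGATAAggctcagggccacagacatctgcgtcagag

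Amh ran from 242 on array 2199 to 1057 on array 2076, with 1 value at the floor and a 2.43-fold inner range. Inha ran from 26724 on array 2197 to 90530.1 on array 2074, with an inner range of 2.33-fold and the pair above the other 6 arrays (90530.1 and 69907 against 26724 to 54083), as in Foxl2, Nr5a1 and Gata4. A match of letters is a description of the window and was not tested against these levels.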

How the data were processed

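Total RNA of granulosa cells was hybridised to 8 Affymetrix arrays. The deposited values are linear signal intensity, computed by the authors in MAS5 (submitters' processing notes). The MAS5 version and any genome build are not given in the sources used here. A trimmed mean (2% off each end) was 1500.5 to 1500.6 on every array, so arrays had been scaled before deposit. MAS5 is noisy at low signal, and no detection calls were used.

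From these values, 57 control probe sets were removed, log2 was taken, and arrays were brought to one median of the probe sets that exceed the array median on all 8. Values under the array's 40th percentile were raised to it. A gene was represented by its brightest probe set, giving 10513 measured of 14217 named genes. Printed signals are scaled and taken before the floor. An order of 2 arrays was unknown where the higher value was only a floor. Probe sets with several gene names (436) or not listed (9780) were not used for genes, and the platform annotation can be old. Python 3.11.15, numpy 2.4.6, pandas 2.3.3 and matplotlib 3.10.9 were used. The inner range was tested on simulated data.

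The labels gave no group, so all arrays stayed unassigned and no test between groups and no group mean or error was computed. Dixon's ratio was used to find an array far from the others, and the SD over arrays only to judge how far an alternative moved a value. The number of arrays limits the precision. The genes and lists were chosen with earlier results of these data known. Named are all probe sets of the 8 genes, the 3 genes with the widest and the 1 with the narrowest inner range of each list, Sox9, Sox8 and Dmrt1, and the 2 nearest genes to each of the 8. Other genes, such as Zfpm2, Ctnnb1, Sp1, Scarb1, Inha, Prlr, Por, Fdx1 and Amh, and the genes listed as unmeasured or as markers, were named after their values were seen. Alternatives were no scaling, quantile normalization, other floors and filters, the mean of probe sets, the full range, each array left out and arrays 2194 to 2199 alone. The E-box search and the values with Gata6 read by its other probe set were added after the data were seen. A planned comparison of protein sequences was not made.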

Additional observations from a re-analysis of the deposited data

Results flagged for a closer look

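An array lying far from the other 7 was looked for with Dixon's ratio, at its 95% critical value, in 53 probe sets of the 8 factors and their partner, target and other factor lists. It was found in 5, and chance flags about 1 in 20 groups. The brightest Nr5a2 probe set, 1390965_at, was low on array 2194 with a signal of 29562, where the other 7 arrays lay between 39019 and 48582. Among the partner genes, Ncoa1, a nuclear receptor coactivator, was low with 1029.9 on array 2198 and Ctbp1, a corepressor, with 6466 on array 2199. Hsd3b1, an enzyme of progesterone synthesis, was high on array 2195 with 400944, and Fdx1, the ferredoxin that passes electrons to Cyp11a1, was high on the same array with 425261.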

How the results depend on the processing

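Unscaled values, quantile normalization, a floor lowered to the 25th percentile or removed, and no filter on low values left the counts of genes with an inner range of at least 2-fold within 1.5 times the values reported in all 4 lists. With the stricter filter (above the median on all arrays) the counts were 1 of 4 lineage factors and 0 of 9 partners, and over all genes 1306 of 6758 in place of 3130. The mean of probe sets gave 1 lineage factor. The full range gave 6 lineage factors with a median of 1.38 (log2), 6 partners, 6 other factors and 7503 of all genes, with a median of 1.30. Over arrays 2194 to 2199 alone the counts were 1 lineage factor, 2 partners, 2 targets, 1 other factor and 1210 of all genes, and the median of the lineage factors was 0.36. Leaving out each array in turn gave 2 to 3 lineage factors with a median of 0.48 to 0.89, 0 to 2 partners, 5 to 9 targets, 1 to 3 other factors and 1937 to 2594 of all genes. Of 184 inner ranges of single probe sets under the alternatives, 167 moved by less than 1 SD over arrays. The causes were not tested, except that a full range is never narrower and a stricter filter leaves fewer genes. No paired analysis was possible because the labels give no groups. Low signal limits Nr0b1, Gata6 and the weaker probe sets of Gata4 and Wt1.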
